A study of Mus musculus with 4 samples.

Results

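The genes described are 10 components of pyroptosis, the lytic, inflammatory death by which macrophages respond to infection. They were chosen by name and function, with earlier results of these data known, from the 48795 genes of the deposited count table, and all 10 were found in it by Ensembl identifier. They are the caspase genes Casp1, Casp4 and Casp8, the pore-forming Gsdmd and Gsdme, the sensors Nlrp3 and Nlrc4, the adaptor Pycard, the kinase Nek7 and the membrane-rupture protein gene Ninj1. RNA sequencing covered bone marrow-derived macrophages of C57BL/6 mice, grown for 5 days in DMEM with 10% FBS and M-CSF at 50 ng/ml. The cells were transfected with 50 nM of siRNAs against IRF2 (2 libraries) or of a control siRNA (2 libraries) and were collected 48 h later. IRF2 is a DNA-binding regulator of genes that respond to interferon. An siRNA lowers a transcript without deleting its gene, the labels name no inflammatory stimulus, and they do not say whether the replicates of a group came from separate cultures or animals. The p-values therefore rest on a spread among these libraries that may be technical.

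In pyroptosis a sensor such as NLRP3 or NLRC4 detects a danger signal or a bacterial protein and gathers the adaptor ASC, encoded by Pycard, and the protease caspase-1 into a complex called the inflammasome. Caspase-1 matures the cytokines IL-1β and IL-18 and cleaves gasdermin D, whose freed end forms pores in the plasma membrane. In mice, caspase-11, the product of Casp4, binds cytosolic lipopolysaccharide and cleaves gasdermin D without a canonical sensor. IRF2 is known from mouse macrophages and endothelial cells as an activator of Gsdmd transcription. The comparison asks which transcripts of the pathway differ when Irf2 is lowered.

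Libraries held 26378584 and 26895100 reads in genes with IRF2 siRNA, and 29862296 and 32273565 with control siRNA. The targeted gene Irf2 had 56.0 and 56.1 CPM (reads scaled by TMM to a common library size) with IRF2 siRNA, against 163.9 and 151.6 CPM with control siRNA, which is 2.81-fold lower (log2 fold change −1.49 ± 0.11 SE, edgeR quasi-likelihood adjusted p = 0.00477). The 7 macrophage markers summed to 25151 and 23908 CPM with IRF2 siRNA and 25586 and 23183 CPM with control siRNA, and none of them was called. Markers of 8 other cell types summed to 22.2 CPM or less per type with IRF2 siRNA and 31.3 CPM or less with control siRNA. Cd8a, Gzma, Retnlg, Mcpt4, Tpsb2 and Hbb-bt had no read in any library. The 5 markers of T cells summed to 21 and 22.2 CPM with IRF2 siRNA and 31.3 and 25.6 CPM with control siRNA, nearly all of it from Cd4. The 8 markers of neutrophils and their precursors summed to 9.59 and 11.0 CPM with IRF2 siRNA and 8.68 and 8.48 CPM with control siRNA. Mitochondrially encoded transcripts took 2.1% of reads in each IRF2 siRNA library, against 2.67% and 2.25% in the control libraries. The part of these in the results below was not tested. In these bulk libraries, fewer cells of a type and less RNA per cell cannot be told apart. The control libraries differed from each other more than the IRF2 siRNA libraries did, with a median absolute difference of log2 CPM over genes of 0.24, against 0.14 between the IRF2 siRNA libraries.

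Of the 10 genes, Casp1 and Casp4 rose with IRF2 siRNA and none fell. Casp1 was 2.44-fold and Casp4 1.87-fold higher. The other 8 did not pass the test, among them Gsdmd, with a log2 fold change of −0.0032, and Nlrp3, with −0.26. All 10 passed the filter on low counts. The test was edgeR's quasi-likelihood fit on 13495 genes, with Benjamini-Hochberg adjustment over all of them and a threshold of 0.05. By that threshold 0.511% of all genes tested rose and 1.27% fell, together 1.79%, against 2 of 10 and 0 of 10 here. The median log2 fold change of the 10 was 0.0051, against −0.0015 over all genes tested. Without an adjustment, 2 of the 10 had a p under 0.05, both above 0. Of all genes tested 10.9% had one, 3.61% above 0 and 7.33% below. DESeq2, limma-voom and the edgeR likelihood ratio test each called the same 2 and none that fell. The libraries of the groups did not overlap in CPM for 6 of the 10, against 38.4% of all genes tested.

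**Figure D1:**
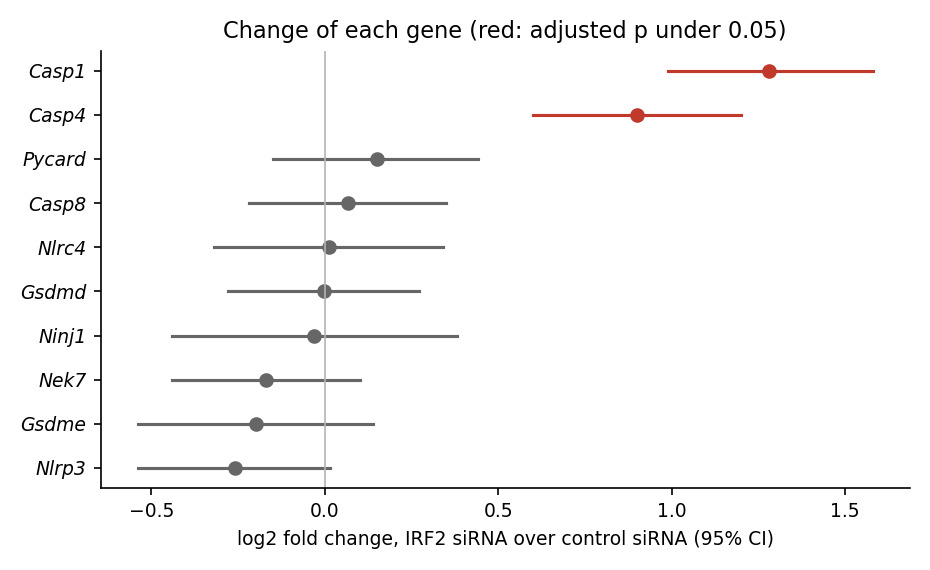
Log2 fold change of each of the 10 genes, IRF2 siRNA over control siRNA, on the horizontal axis, as the edgeR estimate (point) with its 95% confidence interval (line); red marks an adjusted p under 0.05. Casp1 and Casp4, at 1.28 and 0.90, are the genes whose intervals stay above 0.

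Casp1 encodes the protease at the end of the canonical inflammasome. It had 6804 and 6940 reads with IRF2 siRNA, against 3296 and 3142 reads with control siRNA, or 256.9 and 254.7 CPM with IRF2 siRNA against 113.5 and 96.6 CPM with control siRNA. Both IRF2 siRNA libraries lay far above both controls, and the spread was on the side of the controls, whose replicates differed by 0.23 on the log2 scale. The mean was 255.8 ± 1.57 CPM with IRF2 siRNA and 105 ± 12.0 CPM with control siRNA (SD, n = 2 each). On the log2 scale Casp1 was higher by 1.28 ± 0.13 (SE; 95% confidence interval 0.99 to 1.58; edgeR adjusted p = 0.0079). Casp1 was called in all 12 alternative fits, at 1.17 to 1.41 on the log2 scale and edgeR, DESeq2 or limma-voom adjusted p-values from 5.65e-36 to 0.0415.

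Casp4 encodes caspase-11 of the mouse, the receptor for cytosolic lipopolysaccharide. It had 2812 and 2651 reads with IRF2 siRNA, against 1689 and 1654 reads with control siRNA, or 106.2 and 97.3 CPM with IRF2 siRNA against 58.2 and 50.8 CPM with control siRNA. The groups did not overlap, and the replicates of each group differed by 0.13 (IRF2 siRNA) and 0.19 (control siRNA) on the log2 scale. On the log2 scale Casp4 was higher by 0.90 ± 0.13 (SE; 95% confidence interval 0.60 to 1.2; edgeR adjusted p = 0.02). Without IRF2 siRNA replicate 1 it was 0.84 and missed the threshold (edgeR adjusted p = 0.0572). With no filter on low counts it was 0.90 with an edgeR adjusted p = 0.0751, and in the other 10 alternatives it passed.

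Casp1 and Casp4 are neighbours on chromosome 9, both on the plus strand. In GENCODE M21 on GRCm38 (mm10), the source of all gene coordinates here, Casp1 (ENSMUSG00000025888.5) lies at chr9:5298517-5307265 in 10 exonic blocks and Casp4 (ENSMUSG00000033538.13) at chr9:5308828-5336783 in 9, with 1562 bases between them. Casp12, another caspase gene of the cluster, starts 46913 bases from the start of Casp1. It had 1.51 and 1.5 CPM with IRF2 siRNA, against 1.76 and 1.54 CPM with control siRNA. With 40 to 51 reads per library its log2 fold change was −0.12, with a 95% confidence interval of −0.71 to 0.46 and an edgeR adjusted p = 0.959, so a change as large as that of Casp4 lies outside the interval. The window of 500 kb on either side of the start of Casp1 held 5 annotated genes, of which these 3 were expressed enough to test. Of the remaining pair, the pseudogene Gm7390 had 7 to 10 reads per library and the small nucleolar RNA gene Gm24896 had none. No exon of Casp1 or Casp4 overlaps an exon of another gene, and no stretch of 50 bases of their annotated transcripts occurs in a transcript of another gene.

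**Figure D2:**
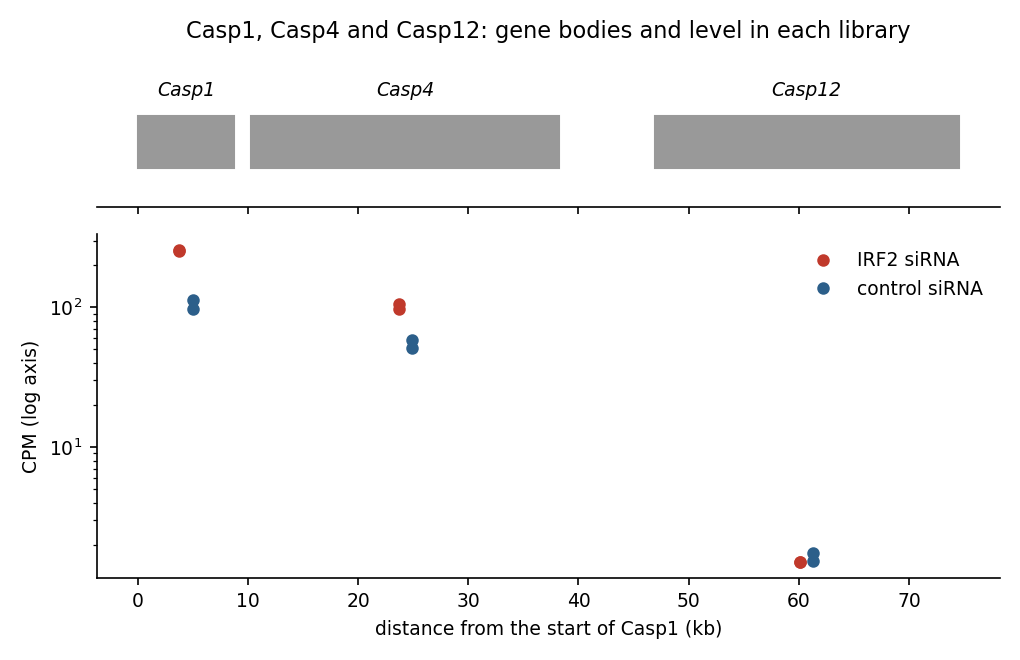
The upper panel shows the bodies of Casp1, Casp4 and Casp12 by distance from the start of Casp1 in kb, and the lower panel the CPM of each gene in each library on a log axis, drawn at the middle of the gene with a small sideways shift between groups. The IRF2 siRNA points lie above the controls for Casp1 and Casp4, while Casp12 stays between 1.5 and 1.76 CPM.

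Promoter windows from RefSeq on GRCm38.p6, the assembly behind mm10, were searched for motifs of interferon-responsive factors. A window holds 300 bases, 250 before an annotated start and 50 from it on. The table had 11 windows for 9 of the 10 genes, and Gsdmd had no entry. Windows of Casp1 and Casp4, which rose, and for comparison of the caspase gene Casp8 and the sensor gene Nlrp3, which were not called, are printed 5′ to 3′ on the strand of the gene. Capitals mark AANNGAAA, the core to which IRF proteins bind, or its reverse complement TTTCNNTT, and adjacent matches run together.
Casp1, chr9:5298267-5298566: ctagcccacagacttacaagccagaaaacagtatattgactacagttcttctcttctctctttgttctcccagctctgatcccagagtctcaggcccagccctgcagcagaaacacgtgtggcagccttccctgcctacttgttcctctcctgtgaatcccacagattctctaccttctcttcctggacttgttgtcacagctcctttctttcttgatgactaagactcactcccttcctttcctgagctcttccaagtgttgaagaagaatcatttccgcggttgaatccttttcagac
Casp4, chr9:5308599-5308898: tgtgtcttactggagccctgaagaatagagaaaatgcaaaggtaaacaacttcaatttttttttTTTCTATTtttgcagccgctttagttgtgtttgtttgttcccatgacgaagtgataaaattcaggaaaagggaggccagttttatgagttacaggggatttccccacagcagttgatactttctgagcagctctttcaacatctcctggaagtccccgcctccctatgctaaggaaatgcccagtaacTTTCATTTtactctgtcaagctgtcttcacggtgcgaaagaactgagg
Casp8, chr1:58802252-58802551: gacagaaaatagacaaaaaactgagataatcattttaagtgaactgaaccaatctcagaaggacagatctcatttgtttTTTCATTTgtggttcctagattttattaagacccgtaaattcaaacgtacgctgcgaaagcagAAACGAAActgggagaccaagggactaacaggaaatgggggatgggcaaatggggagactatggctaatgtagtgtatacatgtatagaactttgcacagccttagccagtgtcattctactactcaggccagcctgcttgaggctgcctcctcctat
Nlrp3, chr11:59542436-59542735: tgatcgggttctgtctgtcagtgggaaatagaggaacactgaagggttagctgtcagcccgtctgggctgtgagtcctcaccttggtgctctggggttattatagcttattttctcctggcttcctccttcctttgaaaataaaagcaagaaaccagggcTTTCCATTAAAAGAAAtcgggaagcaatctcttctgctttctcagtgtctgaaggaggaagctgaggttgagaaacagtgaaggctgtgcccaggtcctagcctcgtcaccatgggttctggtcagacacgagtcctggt

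The interferon-stimulated response element core GAAANNGAAA, on either strand, was in none of the 11 windows and in 3.44% of the 32851 windows of all genes. Its looser form GAAANNGAA, which contains every match of the core, was in none of the 11 and in 8.56% of all windows. The gamma-activated site TTCNNNGAA, its own reverse complement, was in none of the 11 and in 8.3% of all windows. The shorter AANNGAAA, which lies within every match of GAAANNGAAA, was searched after these gave no match. It was in windows of 4 of the 9 genes, Casp4, Casp8, Nlrp3 and Pycard, against 26.7% of all genes with windows. Counted by window it was in 6 of the 11, against 23.9% of all windows. That count holds Casp4, whose windows overlap and share their matches, and Nlrp3 more than once. The window of Casp1 held none of the 4 motifs. In the printed Casp4 window the matches started 186 bases before and 2 bases after the annotated start. In that of Casp8 they started 171 and 108 bases before it. The printed windows of Casp1 and Casp4 include the GENCODE start of the gene. Those printed for Casp8 and Nlrp3 lie wholly downstream of it, at internal starts, so the positions compared are not alike. Another Nlrp3 window, not printed, includes the GENCODE start and held 1 match. A match is a description of letters and not a binding site, and a window without a match says nothing of sites elsewhere in the gene.

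Casp8, at chr1:58795374-58847503 on the plus strand, encodes the initiator caspase of death receptors, which restrains necroptosis and can cleave gasdermins. It had 154.5 and 154.2 CPM with IRF2 siRNA, against 158 and 137 CPM with control siRNA. Both IRF2 siRNA values lay between the controls. Its log2 fold change was 0.066 (95% confidence interval −0.22 to 0.35; edgeR adjusted p = 0.955). Leaving out control siRNA replicate 2 gave −0.034. Of the 50-base stretches of its transcripts, 4.37% also occur in another gene.

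Gsdmd, which encodes the main pore former of pyroptosis, lies at chr15:75862327-75867408 on the plus strand. It had 4006 and 3974 reads with IRF2 siRNA, against 4555 and 4585 reads with control siRNA. Scaled, these were 151.3 and 145.8 CPM with IRF2 siRNA against 156.9 and 140.9 CPM with control siRNA, and both IRF2 siRNA libraries lay between the controls. The mean was 148.6 ± 3.83 CPM with IRF2 siRNA and 148.9 ± 11.3 CPM with control siRNA (SD, n = 2 each). On the log2 scale the difference in Gsdmd was −0.0032 ± 0.11 (SE; edgeR adjusted p = 0.998). Its 95% confidence interval of −0.28 to 0.27 spans 0.826-fold to 1.21-fold. These bounds are not a limit of detection, since a call required an adjusted p under 0.05 over all genes tested. Its sign changed with the setting, and over the 12 alternatives it ran from −0.079 to 0.076.

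Gsdme, at chr6:50188888-50263862 on the minus strand, encodes a gasdermin that caspase-3 cleaves, which can turn apoptosis into lysis. It had 227 and 238 reads with IRF2 siRNA and 291 and 320 reads with control siRNA, or 8.57 and 8.73 CPM with IRF2 siRNA, against 10.0 and 9.83 CPM with control siRNA. Both IRF2 siRNA libraries were slightly below both controls. The estimate on the log2 scale was −0.20 (95% confidence interval −0.54 to 0.14; edgeR adjusted p = 0.777). Ninj1, at chr13:49187485-49196244 on the plus strand, encodes the protein that ruptures the plasma membrane at the end of lytic death. It had 335.2 and 295.5 CPM with IRF2 siRNA, against 373.6 and 270.8 CPM with control siRNA. Its controls lay farthest apart of the 10 genes, by 0.46 on the log2 scale, and enclosed the IRF2 siRNA values. The log2 ratio of the groups was −0.031 (95% confidence interval −0.44 to 0.38; edgeR adjusted p = 0.992). It was 0.22 without control siRNA replicate 1 and −0.24 without control siRNA replicate 2, and passed in neither.

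Of the 10 genes, the sensor gene Nlrp3 had the lowest fold change. NLRP3 responds to potassium efflux and many kinds of membrane damage, and its gene lies at chr11:59541568-59566956 on the plus strand. It had 103.2 and 107.8 CPM with IRF2 siRNA, against 119.2 and 134 CPM with control siRNA, with no overlap between groups. Its estimate was −0.26 ± 0.12 on the log2 scale (SE; 95% confidence interval −0.54 to 0.015; edgeR adjusted p = 0.493). It was below 0 in all 12 alternatives, from −0.35 to −0.18, and passed in none, with a lowest adjusted p = 0.0587. Nlrc4, at chr17:74425438-74459142 on the minus strand, encodes the partner of the NAIP receptors for bacterial flagellin and secretion needles. It had 29.9 and 29.4 CPM with IRF2 siRNA, against 26.6 and 32.2 CPM with control siRNA, and the IRF2 siRNA values fell between the controls. Its log2 change was 0.013 (95% confidence interval −0.32 to 0.34; edgeR adjusted p = 0.996), and it was −0.12 without control siRNA replicate 1.

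Nek7 encodes a kinase that binds NLRP3 and is needed for its assembly, and lies at chr1:138482875-138620141 on the minus strand. It had 150.8 and 157.2 CPM with IRF2 siRNA, against 181.5 and 165.5 CPM with control siRNA. The groups did not overlap. The fitted log2 difference was −0.17 (95% confidence interval −0.44 to 0.10; edgeR adjusted p = 0.734). Pycard, at chr7:127989708-127993867 on the minus strand, encodes the adaptor ASC, which joins sensors to caspase-1. It had 55.8 and 50.7 CPM with IRF2 siRNA, against 50.5 and 45.8 CPM with control siRNA, so the groups did not overlap but the lower IRF2 siRNA library and the higher control were nearly level. The estimated log2 fold change was 0.15 (95% confidence interval −0.15 to 0.44; edgeR adjusted p = 0.836). Exons of the opposite-strand gene Gm45205 overlap 12.8% of the exonic length of Pycard and those of Gm28501 overlap 1.6% of that of Nek7. The strand setting of the counting is not given in the sources used here, so reads of these stretches cannot be assigned.

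**Figure D3:**
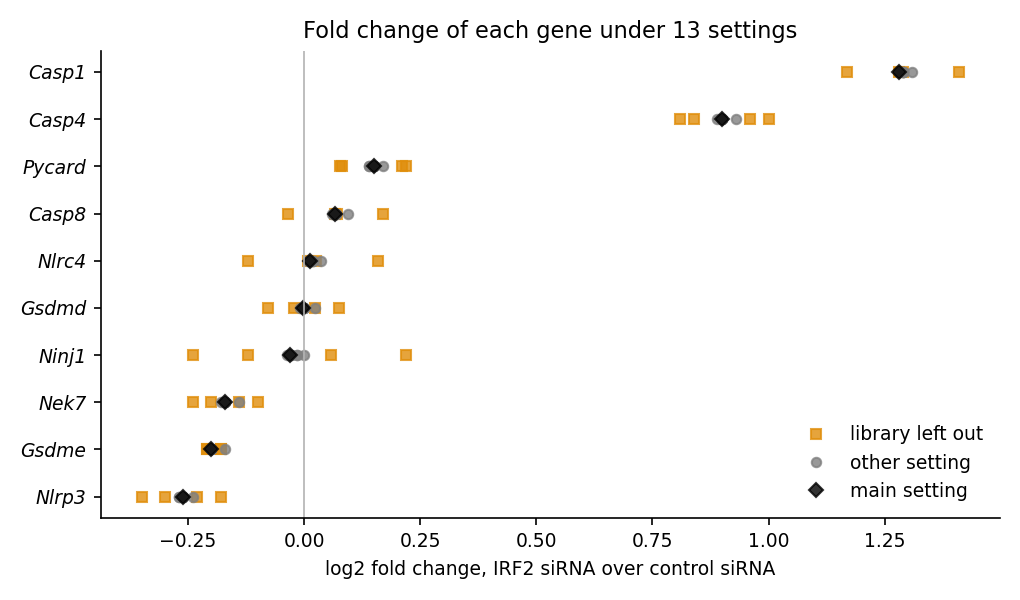
Log2 fold change, IRF2 siRNA over control siRNA, of each of the 10 genes under the main setting (black diamond), with a library left out (orange squares) and under the other alternatives (grey circles). Casp1 stays between 1.17 and 1.41 and Casp4 between 0.81 and 1.0, while the points of Casp8, Nlrc4, Gsdmd and Ninj1 lie on both sides of 0.

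To compare the genes with each other, counts were divided by exonic length and scaled to the same sum in every library (TPM). Ninj1 was the most abundant in both groups, with 680.7 and 631.6 TPM with IRF2 siRNA and 704.5 and 584.6 TPM with control siRNA. Casp1 came next, at 547.2 and 570.9 TPM with IRF2 siRNA, against 224.5 and 218.6 TPM with control siRNA. Gsdmd had 202.9 and 205.9 TPM with IRF2 siRNA and 195.4 and 200.9 TPM with control siRNA. Casp8 had 170.3 and 178.8 TPM with IRF2 siRNA and 161.7 and 160.5 TPM with control siRNA. For Gsdmd and Casp8 the IRF2 siRNA libraries lay above both controls in TPM but between them in CPM, so this order depends on the scaling. The level of Casp1 was thus 2.7 and 2.77 times that of Gsdmd with IRF2 siRNA, against 1.15 and 1.09 times with control siRNA. Relative to Pycard it was 11.7 and 12.7 times with IRF2 siRNA, against 5.71 and 5.35 times with control siRNA. Casp4 had rank 5 with IRF2 siRNA, at 91.3 and 88.0 TPM, where it overlapped Nlrp3, at 81.1 and 89.1 TPM. With control siRNA Casp4 had rank 7, at 46.4 TPM in both libraries, below Nlrp3 at 87.0 and 112 TPM and Nek7 at 72.8 and 76.0 TPM. Pycard at 45.8 ± 1.44 TPM, Nlrc4 at 20.2 ± 0.501 TPM and Gsdme at 2.22 ± 0.11 TPM with IRF2 siRNA (SD, n = 2) closed the order, as they did with control siRNA. All other neighbours in the order of a group had libraries that did not overlap. The 10 genes together summed to 1907.5 and 1903.5 TPM with IRF2 siRNA, against 1550.3 and 1465.1 TPM with control siRNA. Of these sums, Casp1 and Casp4 together held 638.5 and 658.9 TPM with IRF2 siRNA, against 270.9 and 265 TPM with control siRNA.

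These levels rest on annotated lengths, which are 3800 bases for Pycard and 12742 for Gsdme, the union of all exons. With the length of the principal annotated transcript, an alternative chosen after the data were seen, Casp4 had a mean of 162.1 TPM with IRF2 siRNA and 84.0 TPM with control siRNA, and Gsdme of 7.92 TPM with IRF2 siRNA and 8.81 TPM with control siRNA. Casp4 was then above Casp8 with IRF2 siRNA, at 136.7 TPM, and below it with control siRNA, at 126.2 TPM. With that length Casp1 was above Gsdmd with IRF2 siRNA, at 391.2 TPM and Gsdmd at 189.7 TPM, and below it with control siRNA, at 155.1 TPM and Gsdmd at 184 TPM.

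**Figure D4:**
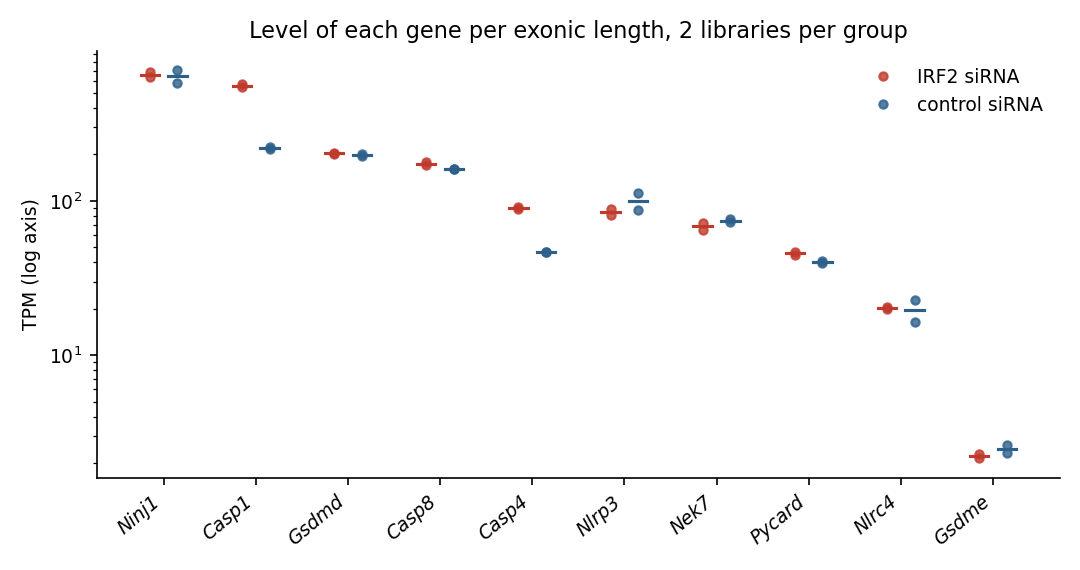
TPM of each of the 10 genes on a log axis, ordered by the mean with IRF2 siRNA; points are the 2 libraries of a group and short lines their mean, with IRF2 siRNA (red) left of control siRNA (blue). Casp1 and Casp4 are the genes whose red points stand clearly above the blue ones, and Gsdme is lowest at about 2.2 TPM with IRF2 siRNA.

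Other genes of the pathway were taken from 7 lists of 74 genes, of which 59 were tested. Among these 59, 2 rose (Zbp1 and Il18bp) and 1 fell (Mlkl), against 0.511% and 1.27% of all genes tested. The median log2 fold change was −0.037, against −0.0015 over all genes tested. Without control siRNA replicate 1, 11 of the 59 were called in a fit that called 1354 of all genes tested, and without control siRNA replicate 2, 12 of the 59 in a fit that called 1805, against 241 in all with all libraries. With no filter on low counts only Zbp1 was called.

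In the list of caspase-8 partners and necroptosis genes, 1 of 13 rose and 1 fell, with a median of −0.037. The shares over all genes tested were 0.511% and 1.27%. Zbp1, a sensor of Z-form nucleic acids that can trigger necroptosis, had 436.7 and 443.2 CPM with IRF2 siRNA, against 206.9 and 215.6 CPM with control siRNA. It was higher by 1.06 on the log2 scale (edgeR adjusted p = 0.00919). Mlkl encodes the pore former of necroptosis, and had 12.2 and 11.9 CPM with IRF2 siRNA, against 23.6 and 24.0 CPM with control siRNA. Its log2 fold change was −0.98 (edgeR adjusted p = 0.0162). With IRF2 siRNA replicate 2 left out, Mlkl missed the threshold (edgeR adjusted p = 0.0536). The members Ripk3, Ripk1, Fadd and Cflar, named after their values were seen, had log2 fold changes of −0.29, −0.028, −0.17 and −0.037 and did not pass.

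In the list of IL-1 family cytokines and their antagonists, 1 of 5 tested rose and none fell, with a median of −0.17. Over all genes tested, 0.511% rose and 1.27% fell. Il18bp, which encodes the secreted antagonist of IL-18, had 86.2 and 80.8 CPM with IRF2 siRNA, against 45.7 and 43.7 CPM with control siRNA, a log2 fold change of 0.90 (edgeR adjusted p = 0.0153). Il1a, the gene of IL-1α, had 35 reads in each IRF2 siRNA library, against 12 and 13 reads with control siRNA. On the log2 scale this was 1.67 ± 0.33 (SE; edgeR adjusted p = 0.0703). With a library left out, the log2 fold change of Il1a ran from 1.65 to 1.69. On all 4 libraries, Il1a missed the threshold with DESeq2 (adjusted p = 0.164) and limma-voom (adjusted p = 0.083). It passed with the edgeR likelihood ratio test (adjusted p = 0.00106) and with a replicate term in the edgeR fit (adjusted p = 0.000813). Il1b and Il18, the caspase-1 substrates, were named after their values were seen. Il1b had 35.0 and 33.1 CPM with IRF2 siRNA, against 45.8 and 40.8 CPM with control siRNA, and an edgeR adjusted p = 0.344. It fell without control siRNA replicate 2, with an edgeR adjusted p = 0.0194. Il18 had 12.8 and 12.0 CPM with IRF2 siRNA, against 14.3 and 13.6 CPM with control siRNA, and an edgeR adjusted p = 0.825. Exons on the opposite strand overlap those of Il1a, Il1b and Il18bp in part, so their values are uncertain to that extent.

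No other sensor was called by edgeR among 8 tested, with a median of −0.17. Unadjusted, 2 of the 8 had a p under 0.05, against 10.9% of all genes tested, and DESeq2, limma-voom and the likelihood ratio test called none. These 2 were Aim2, a sensor of cytosolic DNA, at 0.36 on the log2 scale (edgeR adjusted p = 0.253), and Nlrp10, at −0.56 (0.206). Nlrp10 had 4.53 and 4.70 CPM with IRF2 siRNA, against 6.68 and 6.91 CPM with control siRNA. Aim2 had 113.7 and 121.2 CPM with IRF2 siRNA, against 94.2 and 89.3 CPM with control siRNA. It passed without control siRNA replicate 1, with an edgeR adjusted p = 0.0301, and so did Nlrp10, with 0.043, among 5 of the 8 sensors. Naip2, Naip5 and Naip6 are close paralogs, so the split of reads between them is uncertain. Nlrp6 and Nlrp12 had no read in any library, which allows up to 0.0922 to 0.113 CPM per library, covering counting error only.

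Among the other caspase genes, Casp6 was at 0.19 on the log2 scale (edgeR adjusted p = 0.786). In the list of 9 other genes of the gasdermin and ninjurin families Pjvk alone was tested, with 11 to 16 reads per library and a log2 fold change of −0.10. Of 15 regulators of NLRP3 and 11 genes of pore control and membrane repair none was called by edgeR, DESeq2, limma-voom or the likelihood ratio test, and none had an unadjusted p under 0.05, against the same 10.9% of all genes tested. The smallest p-values among the regulators were those of Ptpn22 and Gpsm3, with log2 fold changes of −0.20 and −0.31. In the repair list they were those of Chmp4b, an ESCRT-III subunit of membrane repair, and Lamtor4, with −0.26 and −0.16. Exons of Pbx2, on the same strand, overlap 16.9% of the exonic length of Gpsm3, so its values are uncertain to that extent. Without control siRNA replicate 2, Gpsm3 and 3 genes of the repair list fell.

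**Figure D5:**
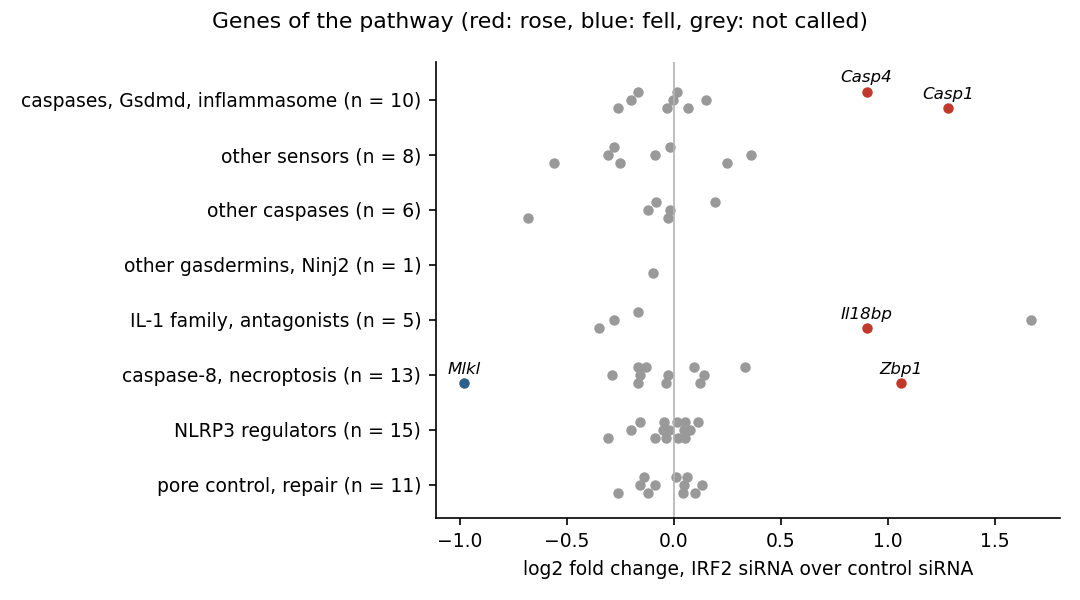
Log2 fold change, IRF2 siRNA over control siRNA, of each tested gene of the 10 pyroptosis genes and of the 7 other lists; red and blue mark genes that rose and fell at an edgeR adjusted p under 0.05, and vertical shifts within a list only separate points. Casp1, Casp4, Il18bp and Zbp1 are red, Mlkl is blue, and the grey point at 1.67 is Il1a.

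Genes with the pattern nearest to that of Casp1 were found by the root mean square difference of log2 CPM, centred per gene, over the 4 libraries, among 8868 genes with a mean log2 CPM of at least 3. They were Ifit3, an interferon-induced antiviral gene, at a difference of 0.061, Parp10 at 0.07, Bid, a pro-apoptotic gene that caspase-8 activates by cleavage, at 0.072, the hexokinase gene Hk3 at 0.082 and the GTPase gene Gbp8 at 0.088. Bid had a mean of 94.6 CPM with IRF2 siRNA and 41.8 CPM with control siRNA, a log2 fold change of 1.18. With 4 libraries in 2 groups, any gene of like fold change and small spread is near in this measure.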

How the data were processed

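Gene expression was measured by RNA sequencing in 4 libraries, 2 per siRNA, grouped by the siRNA in their titles. The table the authors deposited gives raw counts per gene. The submitters' processing notes list bcl2fastq 2.18.0.12, STAR 2.5.2b, HTSeq 0.6.0, DESeq2 and the build mm10. The annotation release and the strand setting were not given in the sources used here. The 5 summary rows, 23.1% to 24.4% of a column, name no gene and were left out.

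Counts were fitted in R 4.3.3 with edgeR 4.0.16 (filterByExpr with a minimum count of 10 and total of 15, TMM, estimateDisp, glmQLFit, glmQLFTest), tested on simulated data. CPM are counts over TMM-scaled library sizes, and TPM use counts over exonic length. Standard errors are the absolute log2 fold change over the square root of F. Symbols, found for 48349 of 48795 genes, coordinates and exonic lengths are from GENCODE M21. Alternatives used DESeq2 1.42.0, limma 3.58.1, other scalings and filters, a replicate term, and each library left out with the same genes kept, where a lone library is assumed to vary like the other group. The members and lists were chosen with earlier results of these data known. From each list the called genes were named, or those with the smallest p up to 2. Some genes that this rule names are not reported here.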

Additional observations from a re-analysis of the deposited data

How the results depend on the processing

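Called members numbered 2 as reported and 1, Casp1 alone, with no filter on low counts, with a minimum of 2-fold, and without IRF2 siRNA replicate 1. With a library left out they numbered 1 to 2. In the other alternatives Casp1 and Casp4 were called. Of 120 alternative values for the 10 genes, 111 kept their direction and side of the threshold. Casp4 was lost in 2 of them, as given above, and 7 values of genes that were not called changed sign: Casp8 to −0.034 without control siRNA replicate 2, Gsdmd to 0.024 with library size alone, 0.023 without IRF2 siRNA replicate 2 and 0.076 without control siRNA replicate 1, Nlrc4 to −0.12 without control siRNA replicate 1, and Ninj1 to 0.057 without IRF2 siRNA replicate 2 and 0.22 without control siRNA replicate 1. All genes called, 241, became 72 with no filter, 427 with DESeq2 and 690 with the likelihood ratio test, and the pathway genes called, 3, became 1 with no filter and 5 with that test; the cause was not tested. With a library left out, all genes called ranged from 224 to 1805 and pathway genes called from 2 to 12. The labels name no pairing of replicate numbers, and deviations of same-numbered libraries correlated at 0.37 across genes; with the replicate block all genes called were 1521, pathway genes 11, and members still Casp1 and Casp4. The rank by level was kept by 6 of 10 genes with CPM in place of TPM and by 6 with the principal transcript. The motif AANNGAAA, added later, was in windows of 4 genes, against 0 for the other motifs. With a library left out, Casp8 ranged from −0.034 to 0.17, Gsdmd from −0.079 to 0.076, Nlrc4 from −0.12 to 0.16 and Ninj1 from −0.24 to 0.22. With 2 libraries per group, changes smaller than the intervals given were not detectable.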
